A study of Mus musculus with 8 samples.

Results

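Trem2, Cd9, Spp1, Gpnmb, Fabp5, Lgals3 and Cd63 are the genes by which scar-associated macrophages of fibrotic tissue are usually recognised. All 7, of 32249 genes listed in the count tables, were followed through every library of a single-cell RNA study of mouse macrophages, by name and whatever their response. The study asked what macrophages do when they meet CYR61, a matricellular protein encoded by Ccn1 that binds integrins on the cell surface. In 4 libraries, hind-limb marrow of 10-week-old C57Bl/6J mice, male by their label, was grown for 3 days in M-CSF, a macrophage growth factor, and CYR61 was then added at 4 µg/mL for another 24 h. In the 4 control libraries, marrow of the same strain, labelled sex and age had the same M-CSF culture without the protein. All cells were lifted with accutase and captured on the HIVE platform, which settles single cells into wells before barcoding their RNA. No label tells if replicates came from separate animals or cultures, so p-values measure the spread between libraries, which may in part be technical. Each group held libraries with Xist RNA and libraries with Y-linked RNA, as given further on. These were cells in a dish, with no scar, hepatocyte or fibroblast around them.

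Scar-associated macrophages were described in fibrotic liver, in human and mouse, as monocyte-derived cells that gather in the scar and carry TREM2 and CD9. Much the same gene set marks lipid-associated macrophages of adipose tissue and foam cells, where it goes with uptake of lipid and debris and with lysosomal work. M-CSF, which signals through the receptor encoded by Csf1r, turns marrow progenitors into macrophages.

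The members are given by role. Trem2 (chr17:48346401-48354147, plus strand, mm10, as are all positions here) encodes a receptor for lipids and lipoproteins that signals through the adaptor TYROBP. Cd9 (chr6:125460266-125494791, minus strand) and Cd63 (chr10:128900989-128912822, plus strand) encode tetraspanins, CD9 mainly at the plasma membrane and CD63 in late endosomes, lysosomes and exosomes. Gpnmb (chr6:49036546-49070929, plus strand) encodes a transmembrane glycoprotein of phagosomes and lysosomes. Spp1 (chr5:104435118-104441050, plus strand) encodes osteopontin, a secreted ligand of integrins and CD44. Lgals3 (chr14:47367751-47386160, plus strand) encodes galectin-3, a lectin that binds galactosides and damaged lysosomes. Fabp5 (chr3:10012548-10016607, plus strand) encodes an intracellular carrier of fatty acids. All 7 are protein-coding in the GENCODE vM21 annotation.

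The 250 bases before the start are shown for Spp1, the member with motif matches, for Gpnmb, the member detected in most cells, and for Isg15, an interferon-induced gene that rose with CYR61 in these libraries. The sequences are from RefSeq, build GRCm38.p6 (mm10), written 5′ to 3′ on the strand of the gene, at chr5:104434861-104435110 (plus strand), chr6:49036268-49036517 (plus strand) and chr4:156200819-156201068 (minus strand) in the order given. Capitals mark matches, on either strand, to the interferon-response element core (GAAA, any 2 bases, GAAA) or to the PU.1 core GAGGAAGT, and a run of capitals in Isg15 is 3 overlapping matches of the interferon core.
Spp1: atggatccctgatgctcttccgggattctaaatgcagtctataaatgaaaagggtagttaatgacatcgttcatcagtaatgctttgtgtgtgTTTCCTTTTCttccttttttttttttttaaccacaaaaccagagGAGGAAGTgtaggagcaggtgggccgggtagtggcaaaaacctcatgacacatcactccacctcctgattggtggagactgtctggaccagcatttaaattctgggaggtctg
Gpnmb: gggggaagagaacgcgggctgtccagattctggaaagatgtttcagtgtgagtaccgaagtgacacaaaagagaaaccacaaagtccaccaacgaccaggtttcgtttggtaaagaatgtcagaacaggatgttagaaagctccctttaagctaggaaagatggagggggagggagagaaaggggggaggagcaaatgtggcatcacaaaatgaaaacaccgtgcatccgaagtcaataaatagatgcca
Isg15: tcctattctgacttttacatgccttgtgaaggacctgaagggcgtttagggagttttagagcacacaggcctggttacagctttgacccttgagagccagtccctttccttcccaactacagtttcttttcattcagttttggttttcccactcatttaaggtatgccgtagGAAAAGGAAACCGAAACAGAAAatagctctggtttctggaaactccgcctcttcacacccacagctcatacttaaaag
RefSeq windows were found for 6 of the 7 members (7 windows, as Spp1 has more than 1 start) and for 8 of 10 interferon genes. The interferon core occurred in the window of 1 member, Spp1, 157 bases upstream of the start, and in 5 of the 8 interferon genes, against 2.98% of all 32851 windows. The PU.1 core occurred in Spp1 alone among the members, 113 bases upstream, against 2.44% of all windows. Searches for CACGTG, the E-box bound by MiT/TFE factors, and for TGACTCA, the AP-1 site, found no match in any member's window, against 6.02% and 4.46% of all windows. These are matches of letters in a fixed window and say nothing of binding.

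The tables listed 40000 barcodes. A limit of 300 or more genes, and of no more than 20% of unique molecular identifiers (UMIs, each standing for 1 captured RNA molecule) from mitochondrial genes, kept 12848 barcodes. Barcodes recurred between tables of the same date stamp, and 3652 of those kept had more UMIs in another table of their date. Each barcode was therefore used only where it had most UMIs, which left 9196 cells, 7139 in CYR61 libraries and 2057 in control libraries, and 2791 of them were also listed in another table. Libraries held 1149043 to 13933610 UMIs in these cells with CYR61 and 842528 to 3436577 in controls. Control replicate 2 lost most when each barcode was assigned to 1 table. It went from 2135 kept barcodes to 315 cells, with 76.1% of its kept UMIs left out. The other libraries lost between 26 barcodes, in CYR61 replicate 4, and 824, in CYR61 replicate 1. The libraries also split against their labels. CYR61 replicates 1 and 2 and control replicates 2 and 3 carried Xist RNA at 1152 to 1249 CPM (a gene's UMIs scaled to the total UMIs of its library), and the other 4 libraries carried RNA of 4 Y-linked genes at 323 to 399 CPM, although all mice were labelled male. Macrophage identity was present in both groups: all 10 macrophage markers were detected, at a summed 11821 to 16055 CPM with CYR61 and 9062 to 13170.4 CPM in controls. Of these sums, Lyz2 alone gave 7381 to 12256 CPM with CYR61 and 5880 to 10171 CPM in controls. Neutrophil-lineage markers summed to 660.2 to 3657 CPM with CYR61 and 649 to 2000.2 CPM in controls, and 6 of 7 erythroid markers were at 0. Osteoclast markers summed to 1756 to 2614 CPM with CYR61 and 1883 to 2664 CPM in controls. Megakaryocyte or platelet markers summed to 591 to 1372 CPM with CYR61 and 375 to 903 CPM in controls.

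None of the 7 genes passed the test for a change with CYR61. They were plentiful in every library of either group, together 1.86%, 1.91%, 2.57% and 2.15% of all UMIs in CYR61 replicates 1 to 4 and 2.50%, 1.78%, 1.99% and 2.59% in control replicates 1 to 4. In edgeR's quasi-likelihood test, 0 of the 7 passed a Benjamini-Hochberg adjusted p of 0.05, where 1.16% of the 10422 genes tested did (121 genes). Of all genes, 1.12% were called higher with CYR61 and 0.0384% lower. The fitted log2 fold changes were below 0 for 6 members and above 0 for Fabp5, with a median of -0.06, beside a median of -0.02 over all genes tested, of which 52.7% were below 0. At this number of libraries the 95% intervals spanned 0 for every member.

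**Figure D1:**
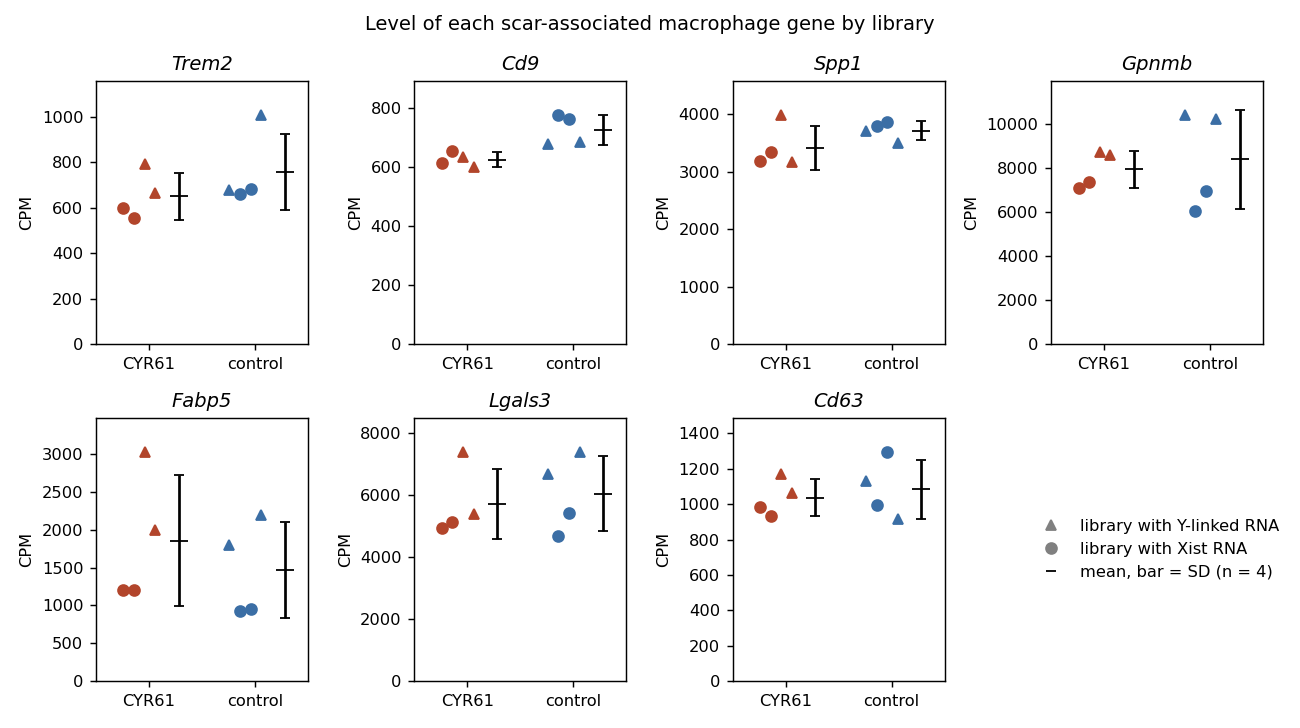
Level of each of the 7 genes in every library, in CPM on axes that start at 0, with CYR61 libraries in red on the left and control libraries in blue on the right of each panel. Triangles are libraries with Y-linked RNA, circles libraries with Xist RNA, and bars give the mean and SD of 4. The groups overlap for 6 genes, Cd9 lies lower in all 4 CYR61 libraries (599 to 655 CPM, against 678 to 774 CPM in controls), and in Fabp5 and Gpnmb all triangles lie above all circles.

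Trem2, the receptor, had 599, 553, 791 and 663 CPM in CYR61 replicates 1 to 4, and 679.7, 659.7, 684 and 1006 CPM in control replicates 1 to 4. The groups overlapped, and control replicate 4 stood far above the other 3 controls. The means were 651 ± 103 CPM with CYR61 and 757 ± 166 CPM in controls (SD, n = 4 each). The fitted log2 fold change was -0.19 (SE 0.20, 95% interval -0.63 to 0.24, edgeR adjusted p = 0.9999), and without control replicate 4 it was 0.05, above 0. Its partners downstream did not pass either: of 13 genes of the TREM2 signalling chain, 0 were called in either direction, with a median log2 fold change of 0.05. Tyrobp, the adaptor that carries the TREM2 signal, had 1831 ± 363 CPM with CYR61 and 1698 ± 221 CPM in controls, a log2 fold change of 0.13. Lat2, a signalling scaffold of myeloid cells, had 427 ± 117 CPM with CYR61 and 519.9 ± 105 CPM in controls, a log2 fold change of -0.26. In bulk sums of this kind, fewer expressing cells and less RNA per cell cannot be told apart. Shares of cells are given further on, but for a gene with so few UMIs per cell they follow its level and the depth. They do not separate these readings either.

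Cd9, the tetraspanin used with Trem2 to define the cells, was the 1 member whose groups did not overlap. It had 613, 655, 632 and 599 CPM in CYR61 replicates 1 to 4, and 678, 774, 761 and 684 CPM in control replicates 1 to 4. Every CYR61 library was below every control library, a pattern shown in that direction by 2.25% of the genes tested, in the opposite direction by 2.87% and in either by 5.12%. The means were 625 ± 24.6 CPM with CYR61 and 724 ± 50.3 CPM in controls (SD, n = 4 each). The difference was not called: the log2 fold change was -0.18 (SE 0.14, 95% interval -0.49 to 0.13, edgeR adjusted p = 0.985). Cd9 varied little, with a coefficient of variation over all 8 libraries of 9.59%.

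Cd63, the tetraspanin of lysosomes, had 984, 934, 1169.7 and 1061 CPM in CYR61 replicates 1 to 4, and 1132, 994, 1295 and 917 CPM in control replicates 1 to 4. The groups overlapped, with control replicate 3 highest and control replicate 4 lowest of all. The means were 1037 ± 102 CPM with CYR61 and 1085 ± 166 CPM in controls (SD, n = 4 each), with a log2 fold change of -0.04 (SE 0.17, 95% interval -0.40 to 0.33). A processed copy listed as Cd63-ps held 2578 UMIs, 7.77% of the 33192 of Cd63, and how reads shared between them were counted is not given in the sources used here. Among 12 other tetraspanins 0 were called, with a median log2 fold change of -0.32. Cd53, a tetraspanin of leukocytes, had 689 ± 82.6 CPM with CYR61 and 686 ± 118 CPM in controls. Cd37, another leukocyte tetraspanin, had 120.1 ± 20.5 CPM with CYR61 and 181 ± 27.8 CPM in controls. All 4 CYR61 libraries were lower in Cd37, but the log2 fold change of -0.57 did not pass (SE 0.19, edgeR adjusted p = 0.432).

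Gpnmb, the phagosome and lysosome glycoprotein, had 7080.3, 7347, 8706 and 8585 CPM in CYR61 replicates 1 to 4, and 10376, 6021, 6934 and 10208 CPM in control replicates 1 to 4. The 4 CYR61 values lay inside the span of the controls, which formed 2 high and 2 low libraries. The means were 7929.6 ± 835 CPM with CYR61 and 8385 ± 2235 CPM in controls (SD, n = 4 each), a log2 fold change of -0.06 (SE 0.21, 95% interval -0.51 to 0.40). Gpnmb is a textbook target of the MiT/TFE transcription factors, which govern lysosome genes. None of the 4 factors was called, with a median log2 fold change of 0.12. Mitf, the melanocyte and osteoclast member, had 195 ± 25.6 CPM with CYR61 and 196 ± 25.2 CPM in controls. Tfe3 had 132 ± 7.99 CPM with CYR61 and 124 ± 8.51 CPM in controls.

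Spp1, encoding osteopontin, had 3180.1, 3335, 3975 and 3172 CPM in CYR61 replicates 1 to 4, and 3708, 3785, 3859.8 and 3494 CPM in control replicates 1 to 4. Replicates 1, 2 and 4 with CYR61 were below all controls, and CYR61 replicate 3 was above all of them. The means were 3416 ± 381 CPM with CYR61 and 3712 ± 158 CPM in controls (SD, n = 4 each), a log2 fold change of -0.09 (SE 0.15, 95% interval -0.42 to 0.24). Of 7 osteopontin receptors, 0 were called, with a median log2 fold change of -0.09. Cd44, the hyaluronan receptor that also binds osteopontin, had 574 ± 120.3 CPM with CYR61 and 642 ± 213 CPM in controls. Itgb1, the integrin β1 chain, had 579.9 ± 142 CPM with CYR61 and 621 ± 128 CPM in controls.

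Lgals3, encoding galectin-3, had 4927, 5126, 7375 and 5393 CPM in CYR61 replicates 1 to 4, and 6653, 4684, 5399 and 7374 CPM in control replicates 1 to 4. The highest CYR61 library and the highest control library were almost equal. The means were 5705 ± 1129 CPM with CYR61 and 6028 ± 1212 CPM in controls (SD, n = 4 each), a log2 fold change of -0.05 (SE 0.21, 95% interval -0.50 to 0.39).

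Fabp5, the fatty acid carrier, was the most variable member. It had 1203, 1198, 3027 and 1999 CPM in CYR61 replicates 1 to 4, and 1799, 919, 949.5 and 2189 CPM in control replicates 1 to 4. The highest library stood 3.29 times above the lowest, the coefficient of variation over the 8 libraries was 44.1%, against 8.78% for Spp1 and 19.9% for Trem2, and the groups overlapped. The means were 1857 ± 866 CPM with CYR61 and 1464 ± 632 CPM in controls (SD, n = 4 each). The log2 fold change was 0.36 (SE 0.35, 95% interval -0.41 to 1.14, edgeR unadjusted p = 0.324), and it was 0.08 without CYR61 replicate 3. In the earlier-dated libraries alone, replicates 1 and 2, it was -0.07, and in the later-dated ones, replicates 3 and 4, it was 0.65. Both earlier-dated CYR61 libraries carried Xist RNA and both later-dated ones Y-linked RNA, while the controls of each date held both kinds. The fits by date therefore do not separate the date from the division into Xist and Y libraries. Of the other fatty acid binding proteins 3 of 7 could be tested and 0 were called, with a median log2 fold change of 0.92. Fabp4, the carrier of adipocytes and foam cells, had 1468 ± 881 CPM with CYR61 and 1567 ± 492 CPM in controls, and Fabp7 had 101 ± 64.9 CPM with CYR61 and 53.3 ± 20.4 CPM in controls. The third, Fabp3, which is named after its values were seen, had 12.6 ± 6.83 CPM with CYR61 and 4.07 ± 3.04 CPM in controls (log2 fold change 1.75, edgeR adjusted p = 0.577). A near copy listed as Fabp5l2 held 450 UMIs, 0.949% of the 47425 of Fabp5.

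**Figure D2:**
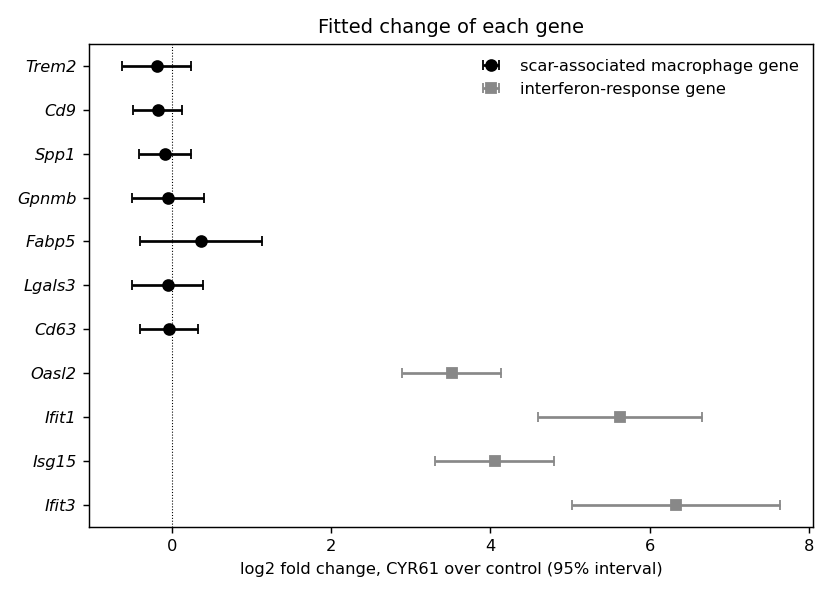
Fitted log2 fold change of CYR61 over control with its 95% interval, from the edgeR fit over all 8 libraries, for the 7 scar-associated macrophage genes (black circles) and 4 interferon-response genes (grey squares). The intervals of the 7 all span 0, from -0.19 for Trem2 to 0.36 for Fabp5, while Isg15 lies at 4.05.

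The spread of Fabp5 followed the division into Xist and Y libraries. In the 4 Y libraries it ranged over 1799 to 3027 CPM (2254 ± 539, SD), and in the 4 Xist libraries over 919 to 1203 CPM (1067 ± 154), a ratio of 2.11 with no overlap. Gpnmb did the same, at 8585 to 10376 CPM in Y libraries (9469 ± 954) and 6021 to 7347 CPM in Xist libraries (6845 ± 576), a ratio of 1.38. Thus 2 of 7 members were higher in all Y libraries, where 9.12% of the genes tested were. No member was lower in all of them, where 10.5% of the genes were, which makes 19.6% in either direction. Lgals3 and Trem2 had ratios of Y to Xist libraries of 1.33 and 1.26, with overlap. Cd63, Spp1 and Cd9 were near parity, with ratios of 1.02, 1.01 and 0.925. These sets of 4 were defined from the RNA itself and are not the study's groups, and each held 2 CYR61 and 2 control libraries. The sets also differed in other ways. The median share of mitochondrial UMIs per cell was 4.55 to 11.7% in Y libraries and 11.9 to 14.3% in Xist libraries. Neutrophil-lineage markers summed to 1713 to 3657 CPM in Y libraries and 649 to 1668 CPM in Xist libraries. With Xist or Y library as a term in the edgeR fit, the log2 fold change of Fabp5 with CYR61 was 0.38 (SE 0.14, 95% interval 0.07 to 0.69), which did not pass over all genes (edgeR adjusted p = 0.306). It was 0.46 among Xist libraries alone (edgeR adjusted p = 0.0971) and 0.35 among Y libraries alone (edgeR adjusted p = 0.768). What sets these libraries apart was not tested.

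To compare cells of unequal depth, each cell was thinned at random to 500 UMIs, which left out 348 shallower cells (240 with CYR61, 108 control) and kept 8848. Gpnmb was then detected in 98.1 ± 1.09% of cells with CYR61 and 97.9 ± 1.97% of control cells, and Lgals3 in 95.5 ± 2.06% with CYR61 and 93.6 ± 3.17% in controls (mean ± SD of 4 libraries each, as are all shares here). These were detected in nearly every cell. Spp1 was detected in 77.9 ± 4.92% of cells with CYR61 and 76.6 ± 3.25% in controls, Fabp5 in 64.2 ± 18.9% with CYR61 and 56.6 ± 14.8% in controls, and Cd63 in 42.1 ± 6.84% with CYR61 and 40.8 ± 4.05% in controls. Trem2 was detected in 27.1 ± 1.84% with CYR61 and 29.7 ± 6.57% in controls, and Cd9 in 26.8 ± 2.10% with CYR61 and 28.9 ± 3.12% in controls. For each of the 7 the means differed by less than the larger of the 2 SDs. At full depth the mean shares were higher: 56.9% with CYR61 and 55.5% in controls for Trem2, 55.2% with CYR61 and 54.5% in controls for Cd9, 91.9% with CYR61 and 89.95% in controls for Spp1, 88.1% with CYR61 and 80.1% in controls for Fabp5, and 69.2% with CYR61 and 67.2% in controls for Cd63. Gpnmb and Lgals3 were then in 98.9% or more of cells in either group. Fabp5 was found in 74.7 ± 7.88% of thinned cells of Y libraries and 46.1 ± 3.22% of those of Xist libraries.

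Free RNA can give UMIs in cells that do not express a gene, so the shares were set beside those in cells that should lack Trem2, Spp1 and Gpnmb. A first rule took the 1032 thinned cells with 3 or more neutrophil-lineage markers, of a median 5693 UMIs before thinning. Trem2 was detected in 27.8% of these, Spp1 in 74.7% and Gpnmb in 97.2%. They had a mean of 1.57 macrophage markers per cell, counted here without Lyz2. The first rule counted markers before thinning and so favoured deep cells. A second rule, chosen after the data were seen, took the 86 cells with at least 2% of their thinned UMIs from these markers. Most of the 86 were also among the 1032. Both sets of cells were compared with the 7814 cells that met neither rule. Trem2 was detected in 22.1% of the 86 neutrophil-marker cells (95% Wilson interval 14.6 to 31.9%), against 26.7% (25.7 to 27.6%) of the others, so its share in thinned cells was not above this background beyond counting error. Cd9 was in 29.1% of them and 27.0% of the others. Spp1 was in 47.7% (37.4 to 58.1%) of the neutrophil-marker cells and 76.8% (75.9 to 77.8%) of the others, and Gpnmb in 84.9% (75.8 to 90.9%) of the neutrophil-marker cells and 97.8% (97.5 to 98.1%) of the others, so under the second rule both were detected less often while still common. Fabp5 was in 44.2% of the neutrophil-marker cells and 55.8% of the others, Lgals3 in 82.6% of them and 94.9% of the others, and Cd63 in 26.7% of them and 38.8% of the others. The median depth before thinning was 1474 UMIs in the neutrophil-marker cells and 1126.5 in the others. Cells of all libraries were pooled here, so these shares do not separate the kind of cell from the library. The intervals cover counting error only, not the spread between libraries. Even without Lyz2, the neutrophil-marker cells still had a mean of 0.988 macrophage markers, against 1.74 in the others, so they were not free of macrophage RNA.

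Cells with both Trem2 and Cd9, the pair that defines scar-associated macrophages, made up 6.33%, 7.39%, 9.62% and 7.76% of thinned cells in CYR61 replicates 1 to 4, and 7.03%, 7.97%, 7.07% and 10.3% in control replicates 1 to 4. The groups overlapped for most libraries, with CYR61 replicate 1 below all controls and control replicate 4 above all CYR61 libraries. The means were 7.78 ± 1.37% with CYR61 and 8.09 ± 1.53% in controls, a difference of -0.314 percentage points (exact two-sided permutation test, p = 0.743, where 70 assignments allow a smallest p of 0.0286). The size of these shares depended on depth. At 300 UMIs per cell the means were 3.15% with CYR61 and 2.73% in controls. At 1000 UMIs they were 22.5% with CYR61 and 23.7% in controls, and unthinned 38.4% with CYR61 and 35.5% in controls. At 500 UMIs, the share of cells with both, divided by the product of the separate shares, was 1.004, 1.05, 1.11 and 1.11 in CYR61 replicates 1 to 4, and 0.975, 0.872, 0.993 and 0.960 in control replicates 1 to 4. Every CYR61 library was above 1 and every control library below it, with means of 1.07 ± 0.0503 with CYR61 and 0.950 ± 0.0538 in controls (SD, n = 4 each). Of the 21 pairs of members, this was the 1 pair whose ratios did not overlap between the groups, and it was not tested. With labels assigned at random, a single pair would separate fully in either direction with a chance of 0.0286, and 21 pairs were looked at. The separation was present at 500 UMIs per cell and at no other depth tried. At 300 UMIs the mean ratios were 0.977 ± 0.0457 with CYR61 and 1.02 ± 0.281 in controls, at 1000 UMIs they were 1.03 ± 0.0342 with CYR61 and 1.0002 ± 0.0388 in controls, and unthinned they were 1.22 ± 0.0529 with CYR61 and 1.18 ± 0.0809 in controls, with overlap each time. The ratio at these other depths was looked at after the data were seen.

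**Figure D3:**
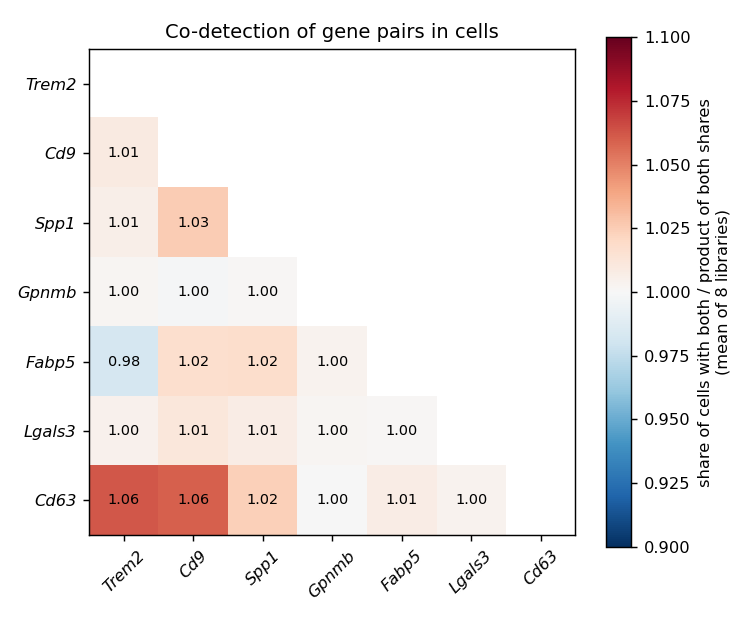
Share of thinned cells with both genes of a pair divided by the product of the separate shares, as the mean of 8 libraries, for all 21 pairs of the 7 genes, where 1 means that the genes were found together as often as their shares predict. Values run between 0.98 for Trem2 with Fabp5 and 1.06 for Trem2 with Cd63 and Cd9 with Cd63.

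Over the 8 libraries together, no pair departed far from the product of its shares. Among all 21 pairs the mean ratio ran between 0.98 and 1.06. It was highest for Trem2 with Cd63, at 1.06, but there the single libraries ran between 0.934 and 1.26. Since Gpnmb and Lgals3 were in nearly every cell, their pairs could not depart much from 1.

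By number of members rather than by pair, a thinned cell held on average 4.04, 4.04, 4.79 and 4.39 of the 7 in CYR61 replicates 1 to 4, and 4.40, 4.09, 4.07 and 4.41 in control replicates 1 to 4. CYR61 replicate 3 was highest, and the rest formed 2 sets, 4.04 to 4.09 and 4.39 to 4.41, each with libraries of both groups. The means were 4.32 ± 0.356 with CYR61 and 4.24 ± 0.188 in controls, a difference of 0.0742 that is smaller than either SD. Cells with 5 to 7 members made up 43.5 ± 12.4% with CYR61 and 41.5 ± 7.23% in controls. All 7 at once were found in 0.633%, 1.001%, 4.93% and 2.15% of cells in CYR61 replicates 1 to 4, and 1.81%, 1.33%, 1.06% and 2.98% in control replicates 1 to 4. The Y libraries held 4.50 ± 0.194 members per cell and the Xist libraries 4.06 ± 0.0226, without overlap. Among the 7, Fabp5 differed most in its share of cells, with 74.7% in Y libraries and 46.1% in Xist libraries. Trem2, next, was at 30.6% in Y libraries and 26.1% in Xist libraries, and Cd9 at 27.4% in Y libraries and 28.2% in Xist libraries.

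**Figure D4:**
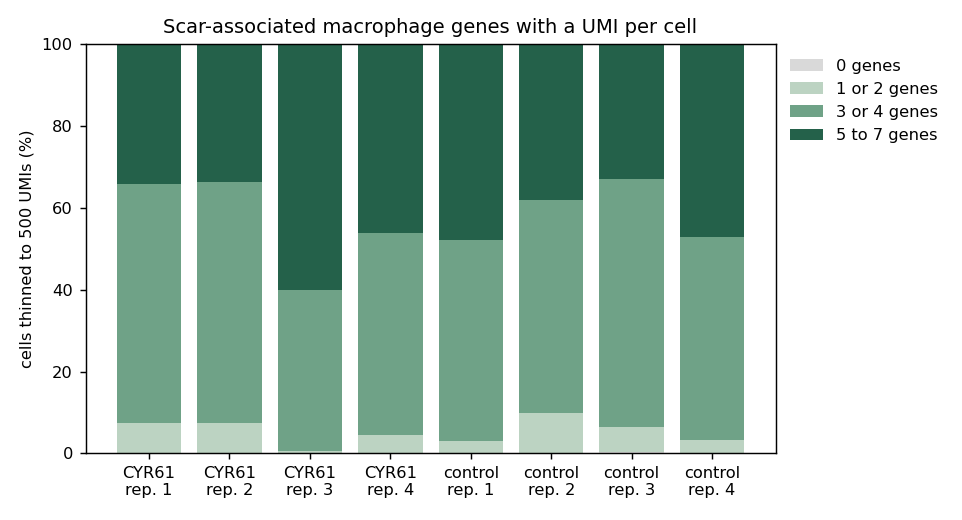
Share of cells, thinned to 500 UMIs, with 0, 1 or 2, 3 or 4, and 5 to 7 of the 7 genes, one bar per library, with CYR61 replicates on the left and controls on the right. Cells with 5 to 7 genes make up 60.1% in CYR61 replicate 3 and between 32.9% and 47.8% in the other 7 libraries.

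Within a library, Spp1 was the member most unevenly spread over cells. In 5218 cells thinned to 1000 UMIs, the variance of its UMIs was 3.16 times the mean, averaged over libraries, and single cells reached 28 UMIs. The same ratio was 1.62 for Gpnmb, 1.57 for Lgals3, 1.18 for Fabp5, 1.10 for Cd9, 1.08 for Cd63 and 1.01 for Trem2, where 1 is what random sampling alone would give. The tenth of cells richest in Spp1 held 30.3% of its UMIs, and for the sparser Trem2 this share was 37.2%. Abundance itself shapes both the share and the ratio. The mean UMIs per cell were 9.14 for Gpnmb and 3.99 for Spp1, but 0.676 for Trem2 and 0.660 for Cd9. A ratio near 1 in such sparse counts does not show even expression. Across cells of a library the correlation of the log-transformed UMIs of Gpnmb and Lgals3 averaged 0.265 (0.131 to 0.428 over 8 libraries), the highest of the 21 pairs. That of Fabp5 with Lgals3 averaged 0.144 and that of Trem2 with Cd9 averaged 0.00777. The cells of a library share its depth and free RNA, and correlations this low in sparse counts are given as a description only.

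The genes whose UMIs went most closely with the number of members per cell were all from the lipid- and damage-associated macrophage list. Among 1925 genes found in at least 5% of cells of every library, the highest mean correlations within libraries were those of Mmp12 at 0.185, Ctsl at 0.185, Cd36 at 0.167, Lpl at 0.152 and Ctsd at 0.148. Mmp12 encodes macrophage elastase, Ctsl and Ctsd lysosomal proteases, Cd36 a scavenger receptor for oxidised lipoprotein and Lpl lipoprotein lipase. That list held 28 of the 1925 genes. For single members, Lpl was nearest to Spp1 (0.221), Mmp12 to Cd9 (0.142), Ctss, a lysosomal protease, to Cd63 (0.154), and Fth1, the heavy chain of ferritin, to Gpnmb (0.351), Lgals3 (0.394) and Fabp5 (0.204). The nearest to Trem2 was Atp6v0b, a subunit of the lysosomal proton pump, at only 0.0644. The second in line were Ctsl for Spp1 (0.200), Lpl for Cd9 (0.116), Mmp12 for Cd63 (0.146) and Lgals3 (0.253), Ctsd for Gpnmb (0.237), Lyz2 for Fabp5 (0.197) and Clec4d for Trem2 (0.0635).

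Of the 34 genes of that lipid- and damage-associated list, 33 could be tested and 0 were called in either direction, with a median log2 fold change of 0.12. Lpl had 9376 ± 934 CPM with CYR61 and 11250 ± 1031 CPM in controls, a log2 fold change of -0.24. Ctsb, a lysosomal protease, had 8935 ± 854 CPM with CYR61 and 8536 ± 968 CPM in controls. Mmp12 had 3472 ± 372 CPM with CYR61 and 5347 ± 1030 CPM in controls, lower in all 4 CYR61 libraries, with a log2 fold change of -0.60 (SE 0.18, edgeR adjusted p = 0.322) that did not pass. With Xist or Y library as a term, Mmp12 passed (log2 fold change -0.59, edgeR adjusted p = 0.0416).

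Genes of 2 lists next to the scar-associated state passed the test. Of 13 fibrogenic mediators of macrophages, 10 could be tested, 2 were higher with CYR61 and 0 lower, with a median log2 fold change of -0.18. Pdgfc, a platelet-derived growth factor chain that acts on stromal cells, had 10.8 ± 4.99 CPM with CYR61 and 0.285 ± 0.400 CPM in controls (edgeR adjusted p = 0.00686). With only 2 control UMIs, its pooled ratio was 43.6 (95% exact interval 12.0 to 362, counting error only). Il1b, the inflammatory cytokine, had 17.6 ± 17.6 CPM with CYR61 and 0.285 ± 0.400 CPM in controls (edgeR adjusted p = 0.0161), a pooled ratio of 37.3 (10.2 to 310) over 2 control UMIs. Its call was lost when any 1 of the 4 control libraries was left out (edgeR adjusted p = 0.0512 to 0.126). Of 8 Kupffer cell genes 3 could be tested and 1 was called. Marco, a scavenger receptor of resident macrophages, had 36.0 ± 27.9 CPM with CYR61 and 3.03 ± 3.28 CPM in controls, a log2 fold change of 3.86 (edgeR adjusted p = 0.0415). Its call was lost without CYR61 replicate 1 or 4 and without control replicate 1, 3 or 4 (edgeR adjusted p = 0.0538 to 0.221).

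The interferon-response genes, whose rise in these libraries was known from earlier results, gave a scale for the members. Of the 10 genes, 9 could be tested and all 9 were higher with CYR61, with a median log2 fold change of 4.63. Isg15, the ubiquitin-like modifier, had 278 ± 78.9 CPM with CYR61 and 18.3 ± 8.93 CPM in controls, a log2 fold change of 4.05 (edgeR adjusted p = 8.469e-05). Oasl2, Ifit1 and Ifit3, antiviral effectors, rose by 3.51, 5.63 and 6.34 on the log2 scale (edgeR adjusted p = 8.469e-05, 8.469e-05 and 0.000155). Over all 12848 kept barcodes, without assigning each to 1 table, none of these interferon genes was called, nor were Pdgfc, Il1b and Marco (edgeR adjusted p = 0.9999 each), and the members were again not called.

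Interferon genes per cell were counted beside the number of scar-associated genes. In cells thinned to 1000 UMIs, the mean number of the 10 interferon genes with a UMI was 1.16, 1.07, 2.51 and 2.37 in CYR61 replicates 1 to 4, and 0.0603, 0.0843, 0.0872 and 0.0950 in control replicates 1 to 4. Replicates 3 and 4 with CYR61, which are the later-dated Y libraries of that group, were highest. In CYR61 replicate 1 it was 1.06 in the 785 cells with 5 to 7 of the scar-associated genes and 1.38 in the 332 cells with 0 to 4. In CYR61 replicate 2 it was 1.06 in the 1766 cells with 5 to 7 and 1.08 in the 722 with 0 to 4. In CYR61 replicate 3 it was 2.54 in 170.0 cells with 5 to 7 and 2.33 in 24 with 0 to 4, and in CYR61 replicate 4 it was 2.40 in 320.0 cells with 5 to 7 and 2.24 in 82 with 0 to 4. The means were lower in the richer cells in CYR61 replicates 1 and 2 and higher in CYR61 replicates 3 and 4, and these differences were not tested. The correlation of both numbers across cells was -0.134, -0.0157, 0.0547 and 0.00323 in CYR61 replicates 1 to 4, with both signs present.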

How the data were processed

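RNA of single cells was measured in 8 HIVE libraries, 4 with CYR61 and 4 controls, grouped by the labels. The deposited tables hold raw counts (UMIs) per gene and barcode. The genome build is mm10, per the submitters' processing notes. Which aligner, counter and annotation were used, and how cells were called, is not given in the sources used here. Each table held 5000 barcodes, and no cell call was taken as given.

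Barcodes with at least 300 genes and at most 20% of UMIs from mt- genes were kept, each only in the table of its date stamp where it had most UMIs. No barcode tied. Doublets were not called. Counts were summed per library, divided by the total of these cells for CPM, and tested with edgeR 4.0.16 in R 4.3.3 (TMM, filterByExpr, quasi-likelihood test, all 8 libraries, Benjamini-Hochberg over 10422 genes, adjusted p under 0.05). DESeq2 1.42.0 was an alternative. The edgeR step was tested on simulated data. Shares used cells thinned without replacement to 500 UMIs, and correlations 1000, in numpy 2.4.6. Permutation tests and intervals used scipy 1.17.1. CPM of different genes are not per length and are not compared between genes. The shallowest library held 842528 UMIs.

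Named genes were the 7 members, up to 4 called genes per list and direction, by p, or else its 2 most abundant, the 5 genes most like the number of members, leaving out mt-, Rpl, Rps, Gm-number and Rik names, and the 2 most like each member. Cd37 is named by that rule, and Mmp12 and Cd36 as genes most like the number of members. The members, lists, tests and most alternatives were chosen with earlier results of these data known. The Xist and Y libraries alone, the dates alone for co-detection, the ratio of Trem2 with Cd9 at other depths and the 2% rule for neutrophil-marker cells were chosen after the data were seen. Positions are from GENCODE vM21 and promoter windows from RefSeq (GRCm38.p6).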

Additional observations from a re-analysis of the deposited data

Results flagged for a closer look

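In each group of 4 libraries, the gap from the highest or lowest value to the next was divided by the range of all 4. The values were CPM and shares of thinned cells for the 7 genes, members per cell, and cells with both Trem2 and Cd9. Of 32 such groups, 4 held a library that stood apart, where chance gives about 1 in 20. Trem2 was high in control replicate 4, at 1006 CPM against 659.7 to 684 CPM in the other controls, and its share of thinned cells there was 39.6%, against 26.0 to 27.2% in the other controls. These 2 values are of the same gene in the same library. Cd9 was detected in 33.6% of thinned cells of control replicate 2, against 27.1 to 27.7% in the other controls. Spp1 was detected in 85.2% of thinned cells of CYR61 replicate 3, against 74.9 to 76.3% in the other CYR61 libraries.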

How the results depend on the processing

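None of the 7 genes was called in any of 25 alternatives, and Cd9 was lower with CYR61 in all 25 (log2 fold change -0.26 to -0.05). The signs of the other 6 turned under some alternatives. Trem2 was at 0.054 without control replicate 4 and 0.0066 with barcodes of 1 table only. Spp1 was at 0.029 with no filter on low counts and 0.012 in Y libraries alone. Gpnmb was at 0.064 with no filter, 0.01 without CYR61 replicate 1, 0.04 and 0.13 without control replicates 1 and 4, 0.25 in Xist libraries alone, 0.15 with barcodes of 1 table and 0.026 with at most 10% mitochondrial UMIs. Fabp5 was at -0.074 in the earlier date alone. Lgals3 was at 0.059 with no filter, 0.03 and 0.0056 without CYR61 replicates 1 and 2, 0.13 without control replicate 4, 0.091 in Xist libraries alone, 0.10 with barcodes of 1 table and 0.068 with at most 10% mitochondrial UMIs. Cd63 was at 0.080 with no filter, 0.0045 and 0.02 without CYR61 replicates 1 and 2, 0.10 without control replicate 3, 0.15 in Y libraries alone and 0.032 with at most 10% mitochondrial UMIs. Leaving out each library in turn gave log2 fold changes of -0.26 to 0.054 for Trem2, -0.23 to -0.12 for Cd9, -0.11 to -0.034 for Spp1, -0.19 to 0.13 for Gpnmb, 0.077 to 0.70 for Fabp5, -0.16 to 0.13 for Lgals3 and -0.085 to 0.10 for Cd63. Lpl turned to 0.038 in the earlier date alone. The fitted changes of Ctsb, Cd53, Fabp4, Fabp7, Cd44, Itgb1, Mitf and Tfe3 each had the other sign in 1 to 10 of 25 alternatives. Fabp7 was called with no filter, in the later date alone and in Y libraries alone. The difference in cells with both Trem2 and Cd9 turned positive over all kept cells (0.406 percentage points), without cells holding 3 or more neutrophil markers (0.192), thinned to 300 UMIs (0.422), unthinned (2.96) and in the later date alone (0.0111), and leaving out each library gave -0.930 to 0.421. Its exact permutation p was 0.257 to 1 over all alternatives. The difference in members per cell was -0.204 to 0.352 and moved from its value of 0.0742 by less than the pooled SD between replicates in all 19 alternatives. It was below 0 without CYR61 replicate 3 (-0.0835), in the earlier date alone (-0.204) and at 1000 UMIs (-0.0049). Within a date the CYR61 libraries were of a single kind, Xist or Y, and the controls of both. Over all genes, 121 calls became 184 with DESeq2, 239 with no filter, 231 with Xist or Y library as a term, 371 in Xist libraries alone, 196 in Y libraries alone and 0 over all kept cells (279 at an unadjusted edgeR p under 0.05, DESeq2 not run there), and 74 to 127 when each library was left out, the lowest without CYR61 replicate 4. Over all kept cells Pdgfc, Il1b, Marco and the 4 named interferon genes were not called either, and Pdgfc was not called in Y libraries alone, nor Il1b in Xist libraries alone or in the earlier date alone, nor Marco in either date alone or with at most 10% mitochondrial UMIs. In some alternatives Pdgfc, Il1b and Marco did not pass the filter on low counts and were not tested. With the replicate number as a block 112 genes were called (106 higher, 6 lower) and 0 members, and the call of Marco was lost (edgeR adjusted p = 0.0785). Deviations of same-numbered libraries correlated at -0.198, 0.324, -0.0874 and 0.314, and not every library went best with its own number. Between the groups, libraries of the same kind, Xist or Y, always correlated above 0 and the others below 0. The check follows that division and so cannot settle if the numbers pair libraries. Apart from construction by fewer cells or libraries, the cause of these shifts was not tested.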
